A study of Mus musculus with 10 samples.

Results

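Of 45037 probe sets, 3067 were at least 2-fold higher and 1283 at least 2-fold lower on the second than on the first of the untreated LIF+serum arrays of *Max*-null ESCs. The genes that differed included *Nupr1*, a small stress-induced chromatin protein, the meiotic chromosome genes *Sycp3* and *Hormad1*, and the Nodal antagonist *Lefty2*, all higher on the second array, and the RNA polymerase I subunit gene *Polr1b*, lower there. The series held 10 arrays, and the 2 compared here are those its labels name as untreated in LIF and serum. The first untreated array is the one labelled as the reference for Dox 1, 2, 3 and 4 d, and the second is the one labelled as the reference for Dox 6 and 8 d. All 8 LIF+serum arrays came from mouse ESCs of the 129SV strain, labelled male, whose endogenous *Max* gene is disrupted on both alleles and which live on a *Max* cDNA placed at the *ROSA26* locus under a tetracycline-off system. The untreated cells therefore expressed that cDNA, and the Dox cells, given 1 µg/ml of doxycycline (Dox), had it switched off. The medium of all 8 held serum and leukaemia inhibitory factor (LIF), and the other 2 arrays, of cells in the 2i condition, enter no comparison.

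Each condition held 1 array, and nothing in the sources used here says whether both untreated arrays came from separate cultures, days or passages. No p-value can be had from 1 array a side, so differences are given as sizes only, on the log2 scale and as folds, and the spread between replicates is unknown. A difference is the log2 value on the second minus that on the first untreated array, and 1 on this scale is 2-fold. A gene was read from 1 probe set, the brightest on average over the 8 LIF+serum arrays. Precision is limited by how few arrays there are.

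MAX is the shared partner of the MYC transcription factors and of MGA, a component of the repressive PRC1.6 complex that keeps germ cell genes silent in ESCs. ESCs in serum are a mixed population, whose cells shift between naive and primed states and whose state follows LIF, Nodal and matrix signals. The integrated stress response is the programme that cells start through the factor ATF4 when amino acids run short, protein folding fails or haem is lacking, and its target genes include amino acid carriers and enzymes of amino acid synthesis. These programmes are described here in turn, each with its level on all 8 LIF+serum arrays and its folds over each untreated array.

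Among the probe sets, 6.81% were called higher and 2.85% lower, so 70.5% of the called ones were higher on the second array. Read once per gene, 1169 of 18193 genes (6.43%) were higher and 367 (2.02%) lower. At 4-fold, 386 probe sets (0.857%) were higher and 83 (0.184%) lower, and 114 genes (0.627%) and 5 (0.0275%). At 8-fold the counts of probe sets were 26 and 12. The median difference over all probe sets was -0.08, and the share called higher was largest, 13.9%, among probe sets with a mean level between 6 and 7 on the log2 scale. Of 4397 genes with 2 or more probe sets that reached 6, 966 had at least 1 probe set called higher, and in 671 of these all such probe sets lay above 0. The lower calls agreed less often among probe sets, with 456 genes that had at least 1 and 201 of these with all below 0, and 29 genes had probe sets past 2-fold in opposite directions. All probe sets were past 2-fold together in 148 genes that were higher and 9 that were lower. The 12 genes at each end carried both low and high signals, as the plot of level against difference shows.

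**Figure D1:**
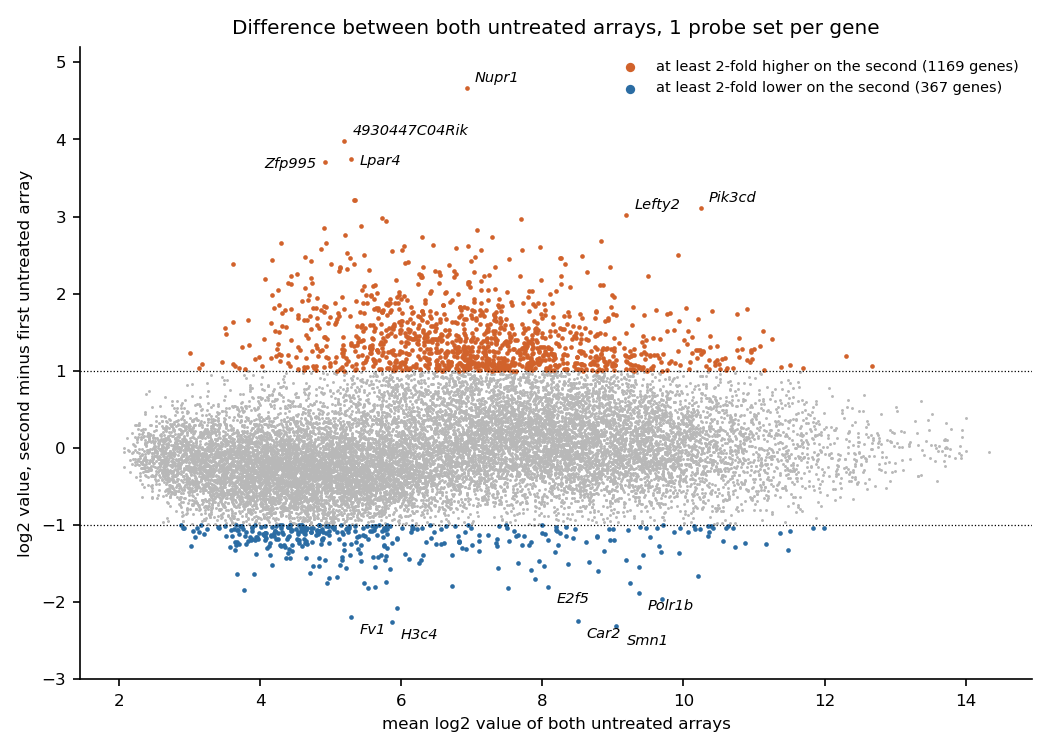
Difference between both untreated arrays for 18193 genes. The x axis is the mean log2 value of both arrays and the y axis the log2 value on the second minus that on the first, 1 point per gene; dotted lines mark 2-fold. The 1169 higher genes reach further from 0 than the 367 lower ones, and *Nupr1* stands at 4.67.

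The size of this difference can be set beside other pairs of arrays. Between both untreated arrays 4350 probe sets differed by at least 2-fold, against 1584 between the first untreated array and Dox 1 d, 2567 between the second and Dox 1 d, and 2348 between the second and Dox 2 d. Some later Dox times lay farther, with 4541 between the first and Dox 4 d and 9889 between the first and Dox 6 d, and 4524 and 4502 between the second and Dox 6 and 8 d. Neighbouring Dox times of the same set were closer, with 553 probe sets between 1 and 2 d, 744 between 2 and 3 d, 281 between 3 and 4 d and 695 between 6 and 8 d. The second untreated array and Dox 3 d differed in 3406 probe sets, and it and Dox 4 d in 4096. Counted this way, the second untreated array was nearer to the Dox 1, 2, 3 and 4 d arrays than to the first untreated array. Several of these pairs share an array, so the counts are not independent.

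Technical readings also split by set of arrays. The 3 control probe sets for 18S ribosomal RNA had a mean log2 value of 8.08 on the first untreated array and from 7.57 to 8.03 at Dox 1 to 4 d, against 13.09, 12.78 and 12.85 on the second untreated array and those of Dox 6 and 8 d. The excess of the 3′ over the 5′ control of beta-actin was 0.41 on the first and 0.88 on the second untreated array, and that of pyruvate carboxylase 0.68 and 1.11. The excess differed less for Gapdh (-0.03 and 0.12) and the transferrin receptor (1.80 and 1.92). The interquartile range of log2 values was 3.16 to 3.32 in the set of the first and 3.52 to 3.54 in that of the second, and normalizing the 8 arrays by quantiles once more left 2738 probe sets higher and 1329 lower (67.3% higher). Among 10485 genes at or above 6 with a known span, the share called higher was 4.54% among the shortest genes (up to 9.77 kb) and 17.4% among the longest (over 51.8 kb), with the genes cut into 4 bins of equal number. The part of these readings in the differences below was not tested, and array set and Dox time cannot be told apart.

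The probe sets fell into a few patterns over the 8 arrays, counted here with a gap of at least 0.5 between arrays. The first untreated array lay below all 7 others in 2002 probe sets (4.45% of all), and these made up 46.4% of the 3067 called higher. The 3 arrays of the second set all lay above the 5 of the first in 888 probe sets (1.97%), which held 19.6% of those called higher. The second untreated array alone lay above the other 7 in 521 (1.16%), which held 7.79% of them. Of the 1283 called lower, 37.6% were lower across the whole second set (1.7% of all probe sets), 12.3% were highest on the first untreated array alone (1.27%) and 7.87% lowest on the second alone (0.617%). So the most frequent of these patterns among the higher probe sets was a low value on the first untreated array, and among the lower ones a low value throughout the second set. The called probe sets were chosen by both untreated values, which favours an extreme value on either array, so their shares are a description only.

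*Nupr1* read 4.59 on the first untreated array and 7.34, 9.23, 10.32 and 9.90 at Dox 1, 2, 3 and 4 d, then 9.26 on the second untreated array and 9.86 and 8.78 at 6 and 8 d. The first untreated array was thus the one low value of 8. *4930447C04Rik*, known as *Six6os1* and coding for a central element protein of the synaptonemal complex, read 3.20 and 7.18 on the first and second untreated arrays and from 6.44 to 8.73 at the Dox times. *Zfp995*, a zinc finger gene, read 3.07 and 6.78, with 5.37 to 7.66 at the Dox times. *Depdc1a*, which codes for a mitotic protein, read 4.31 and 7.25, with 7.01 to 7.82 at the Dox times. All 4 therefore had their single low value on the first untreated array.

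Other leading genes peaked on the second untreated array. *Lefty2* read 7.68 on the first untreated array, 8.15, 10.03, 8.96 and 8.59 at Dox 1, 2, 3 and 4 d, 10.69 on the second untreated array and 7.23 and 6.59 at 6 and 8 d. *Fut9*, a fucosyltransferase that makes the SSEA-1 carbohydrate of ESCs, read 3.73 and 6.94 on the untreated arrays, and its 6 Dox values lay between 3.04 and 6.23. *Pdcl2*, a phosducin-like chaperone gene of male germ cells, read 4.23 and 7.22, with Dox values between 4.41 and 5.64. *Lpar4*, a receptor for lysophosphatidic acid, read 3.41 and 7.16, with Dox values between 4.03 and 6.67. *Gm21283* read 3.74 and 6.95, with Dox values between 3.80 and 5.70. In these genes the second untreated array held the highest of the 8 values.

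A few leading genes changed with the set. *Hsf2*, a heat shock transcription factor, read 3.98 on the first untreated array and 3.54 to 4.05 at Dox 1 to 4 d, against 6.86, 6.26 and 5.94 on the arrays of the second set, and its other probe set differed by 0.42. *Pik3cd*, a catalytic subunit of phosphoinositide 3-kinase, read 8.37 to 8.79 on the 5 arrays of the first set and 11.80 to 12.49 on the 3 of the second. Its 5 other probe sets differed by -1.25 to 0.12, so the value of *Pik3cd* rests on 1 probe set. *Znf41-ps*, a zinc finger pseudogene, completes the 12 with 6.21 and 9.18.

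The 12 genes at the lower end were smaller in size, from -2.31 to -1.79. *Smn1*, needed for the assembly of splicing particles, read 10.20, 9.66, 9.65, 9.05 and 9.10 in the first set and 7.89, 7.06 and 7.31 in the second. *E2f5*, a pocket protein-binding E2F factor, read 8.96 to 9.15 in the first set and 7.18 to 7.34 in the second, but its other probe sets differed by 0.77 and -0.00. *Gng3*, a G protein subunit, read 9.87 to 10.72 in the first set and 8.30 to 9.06 in the second. *Fv1*, a restriction factor against retroviruses, read 6.38 and 4.19 on the untreated arrays. *F8a*, *Sec14l3* and *Cnnm4* also split by set, with differences of -2.07, -1.82 and -1.81. These rest on the 1 probe set read of the 2, 3 and 3 that the genes have. Of the 12, *Smn1*, *Car2*, a carbonic anhydrase (9.63 and 7.38), *Polr1b* and *Slc16a3* had their highest value on the first untreated array by at least 0.5, and *H3c4*, a core histone gene (7.0 and 4.74), had its lowest on the second by as much. *Lor*, an epidermal envelope protein gene, read 7.62 and 5.83.

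Stress genes differed in 1 programme above the others. Of 27 genes of the integrated stress response, 12 were higher on the second untreated array and 0 lower, with a median of 0.81, against 6.43% higher and a median of -0.07 over all genes. Besides *Nupr1*, *Gpt2*, an alanine aminotransferase, differed by 2.46, *Vldlr*, a lipoprotein receptor, by 1.98, *Chac1*, which degrades glutathione, by 1.94, *Slc7a5*, a carrier of large amino acids, by 1.75, and *Atf4* itself by 1.41. *Ddit3* (CHOP) and *Trib3*, targets of ATF4, differed by 0.56 and 0.43, and the cystine carrier gene *Slc7a11* by -0.56 at a level below 6. *Chac1* read 6.42, 6.99, 8.97, 9.96 and 9.74 in the first set and 8.35, 8.13 and 6.70 in the second. *Gpt2* read 7.01, 7.52, 8.71, 8.71 and 8.32 in the first set and 9.48, 8.46 and 7.59 in the second. *Atf4* read 10.56 and 11.97 on the untreated arrays and 11.72 to 12.39 at all Dox times. In *Chac1*, *Gpt2* and *Atf4* the first untreated value was thus the lowest of 8, though that of *Chac1* lay close to Dox 8 d. In *Gpt2* the highest of all 8 values was the second untreated one. Of the 27 genes, 4 had the first untreated array below all others by at least 0.5, so this pattern was not general.

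The promoters of these genes were searched for TGATGNAA, the composite element bound by ATF4 with C/EBP factors, on both strands. RefSeq promoters (build GRCm38.p6, windows of 300 bases, most of them before the start) were at hand for 14452 of the genes read, and 3.24% of those held it. Of 22 genes of the integrated stress response with a promoter, 8 held it (*Asns*, *Atf3*, *Chac1*, *Herpud1*, *Nupr1*, *Slc7a11*, *Trib3* and *Vldlr*). The 3 that held it and were at least 2-fold higher are shown, 5′ to 3′ on the strand of the gene, with the element in capitals (here as its reverse complement): *Nupr1* at chr7:126625421-126625720 (- strand), *Chac1* at chr2:119350992-119351291 (+) and *Vldlr* at chr19:27216770-27217069 (+, 1 of 2 listed starts).
*Nupr1*: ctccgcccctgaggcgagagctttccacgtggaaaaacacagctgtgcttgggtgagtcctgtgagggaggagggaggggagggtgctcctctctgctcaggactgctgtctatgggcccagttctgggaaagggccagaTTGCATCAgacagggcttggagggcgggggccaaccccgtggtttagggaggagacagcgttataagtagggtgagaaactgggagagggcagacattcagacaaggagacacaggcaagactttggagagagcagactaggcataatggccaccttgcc
*Chac1*: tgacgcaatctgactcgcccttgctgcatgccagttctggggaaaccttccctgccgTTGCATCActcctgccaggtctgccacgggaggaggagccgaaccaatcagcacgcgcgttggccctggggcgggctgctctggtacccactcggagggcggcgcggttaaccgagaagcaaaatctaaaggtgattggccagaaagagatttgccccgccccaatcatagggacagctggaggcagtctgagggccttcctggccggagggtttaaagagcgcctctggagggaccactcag
*Vldlr*: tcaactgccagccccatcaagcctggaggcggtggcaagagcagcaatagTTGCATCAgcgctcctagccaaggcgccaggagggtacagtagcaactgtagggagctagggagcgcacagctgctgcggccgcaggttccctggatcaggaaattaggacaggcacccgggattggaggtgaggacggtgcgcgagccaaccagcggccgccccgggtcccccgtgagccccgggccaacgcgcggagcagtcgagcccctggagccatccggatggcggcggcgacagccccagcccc
A match is a description of these letters and not evidence of binding.

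The other stress lists moved little. Of 21 genes of the endoplasmic reticulum unfolded protein response 2 were higher, with a median of 0.24. *Pdia4*, a disulfide isomerase, read 6.83 to 7.21 in the first set and 9.21, 9.23 and 8.97 in the second, so its difference of 2.03 ran across the whole set, and its other probe set differed by -0.39. *Dnajc3*, a co-chaperone, differed by 1.42, and *Hspa5* (BiP), the main chaperone of this response, by -0.06. Of 16 heat shock protein genes 0 were higher and 2 lower (*Hspa4l* by -1.13 and *Cryab* by -1.06). Of 18 NRF2 and oxidative stress genes 1 was lower, *Gpx1* by -1.03. Of 20 hypoxia genes 2 were higher, *Vegfa* by 1.6 and the oxidoreductin gene *Ero1a* by 1.04. Of 19 p53 targets 2 were higher, *Pmaip1* (NOXA) by 1.51 and *Trp53inp1* by 1.16, though a second probe set of *Trp53inp1* differed by -1.23. Of 23 immediate early genes 3 were lower, *Jun* and *Fosl1* by -1.15 and *Ier3* by -1.12. Of 10 genes of metal handling 1 was lower, the iron exporter *Slc40a1* by -1.29, and of 20 interferon and inflammation genes 0 were called. The plot of gene lists gives the medians of all 55 lists.

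**Figure D2:**
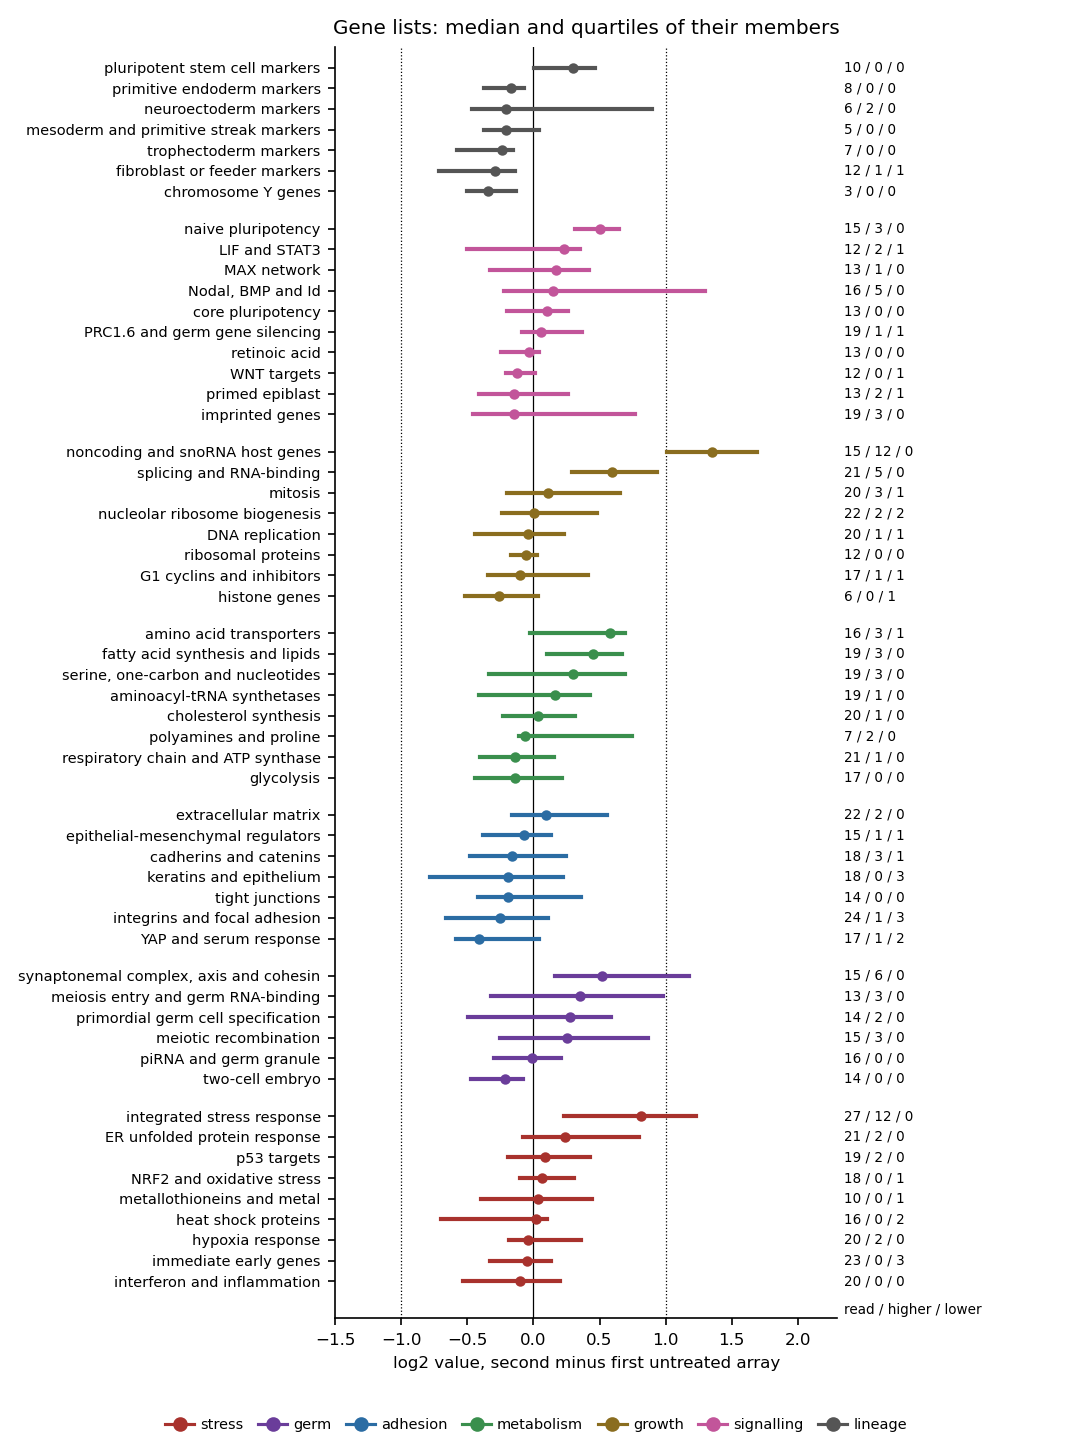
Differences between both untreated arrays in 55 gene lists. Points are the median log2 value on the second minus that on the first over the members read, lines their quartiles, and the numbers at the right the members read, those at least 2-fold higher and those at least 2-fold lower; dotted lines mark 2-fold. The list medians run from -0.41 to 1.35, and 6 lie at or above 0.5.

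Germ cell genes also differed. Of 85 genes in 6 germ cell and early embryo lists, 14 (16.5%) were higher on the second untreated array and 0 lower, with a median of 0.13. Among all genes 6.43% were higher and 2.02% lower. By role, 6 of 15 genes of the synaptonemal complex, chromosome axis and cohesin were higher (median 0.52), 3 of 13 genes of meiosis entry and germ RNA-binding (0.35), 3 of 15 genes of meiotic recombination (0.25) and 2 of 14 genes of primordial germ cell specification (0.27). Of 16 genes of the piRNA pathway and germ granule and of 14 two-cell embryo genes, 0 were called either way. The groups were thus uneven, with medians from 0.52 for the chromosome axis list to -0.21 for the two-cell genes. Only 4 of the 14 two-cell genes reached 6. All probe sets with a mean level between 4 and 5 also had a median of -0.21, so that of the two-cell list is not particular to it.

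*Sycp3*, a lateral element protein of the synaptonemal complex, read 7.48 on the first untreated array, 10.52, 9.63, 11.29 and 11.71 at Dox 1, 2, 3 and 4 d, 10.17 on the second untreated array and 12.18 and 11.72 at 6 and 8 d. *Hormad1*, an axis protein that oversees synapsis, read 3.82, 7.60, 5.50, 8.81 and 9.63 in the first set and 6.20, 9.87 and 9.23 in the second. *Stk31*, a kinase of spermatogenic cells, read 3.84, 7.48, 5.46, 8.43 and 9.40 in the first set and 5.78, 9.80 and 8.90 in the second. In all 3 genes the second untreated array lay between the Dox 1 d and the Dox 2 d array, and the Dox 1 d array lay above the Dox 2 d array.

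*Stra8*, which commits germ cells to meiosis, read 6.36 and 7.77 on the untreated arrays, against 7.93, 7.10, 9.31 and 11.23 at Dox 1, 2, 3 and 4 d and 13.06 and 13.28 at 6 and 8 d. *Dazl*, a germ cell RNA-binding protein, read 5.79 and 6.87 on the untreated arrays, against 8.11, 6.56, 10.19 and 11.41, then 12.31 and 12.24, and its other probe set differed by -0.01. The meiotic cohesin genes *Smc1b* and *Stag3* differed by 1.57 and 1.22, and *Rec8*, the meiotic kleisin, by -0.69. The genes *Terb2* and *Majin*, which tether telomeres to the nuclear envelope, differed by 1.14 and 1.1, and *Terb1*, of the same complex, by 0.19. *Sycp1* and *Sycp2* differed by 0.89 and 0.31. Higher values on the second untreated array were therefore found in several complexes, but not in all their members.

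In recombination, *Tex11*, *Dmc1* (the meiotic strand exchange protein) and *Mei4* (a partner of the break-forming enzyme) were higher by 1.28, 1.27 and 1.03. *Tex11*, at 3.59 and 4.88, and *Spo11*, which makes the breaks, at 4.02 and 3.11, stood below the level of 6 on both untreated arrays. Of the primordial germ cell genes, *Kit* differed by 1.42, with another probe set at -1.03, and *Prdm1* (BLIMP1) by 1.26, while *Dppa3* differed by -0.75 and *Prdm14* by 0.33. *Ddx4* (VASA) read 6.67 and 7.13, *Taf7l* 5.67 and 5.70, and *Slc25a31* 6.26 and 6.04. These last 3 reached 10.13, 10.94 and 10.74 at Dox 8 d, so a high value under Dox did not go with a high second untreated value in every germ gene.

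Most two-cell genes lay below 0, as did the median of weak probe sets, and none was past 2-fold. *Usp17la* (*Dub1*), a deubiquitinase gene, read 8.31 and 7.32 on the untreated arrays, 7.93, 7.31, 11.09 and 12.27 at Dox 1, 2, 3 and 4 d and 12.81 and 12.65 at 6 and 8 d. *Zfp352* differed by -0.47, *Arg2*, an arginase, by -0.87 and *Gm20767* by 0.06. Of the 14 genes, 3 lay above 0.

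Of 14 germ cell genes that were higher on the second untreated array, 11 had a RefSeq promoter, and 4 of these (*Hormad1*, *Stag3*, *Stk31* and *Sycp3*) held CACGTG, the E-box that MYC and MGA dimers with MAX bind and that reads the same on both strands. Of all 14452 genes with a promoter, 10.2% held it. The 3 with the largest differences are shown 5′ to 3′ with the E-box in capitals: *Sycp3* at chr10:88459337-88459636, *Hormad1* at chr3:95559427-95559726 and *Stk31* at chr6:49395289-49395588, all on the + strand, with 2 listed starts for each of the latter pair, 1 of them shown.
*Sycp3*: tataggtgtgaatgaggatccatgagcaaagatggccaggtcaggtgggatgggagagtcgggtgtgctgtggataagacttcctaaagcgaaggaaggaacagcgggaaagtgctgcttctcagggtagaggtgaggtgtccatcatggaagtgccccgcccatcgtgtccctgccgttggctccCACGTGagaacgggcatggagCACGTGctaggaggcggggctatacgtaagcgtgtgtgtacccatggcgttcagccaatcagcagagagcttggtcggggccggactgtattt
*Hormad1*: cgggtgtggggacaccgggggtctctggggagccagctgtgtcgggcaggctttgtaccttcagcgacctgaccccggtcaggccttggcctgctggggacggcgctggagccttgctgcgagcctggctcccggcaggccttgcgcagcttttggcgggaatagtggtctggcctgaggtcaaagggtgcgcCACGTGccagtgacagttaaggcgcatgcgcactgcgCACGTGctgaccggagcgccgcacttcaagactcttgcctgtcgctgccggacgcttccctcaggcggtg
*Stk31*: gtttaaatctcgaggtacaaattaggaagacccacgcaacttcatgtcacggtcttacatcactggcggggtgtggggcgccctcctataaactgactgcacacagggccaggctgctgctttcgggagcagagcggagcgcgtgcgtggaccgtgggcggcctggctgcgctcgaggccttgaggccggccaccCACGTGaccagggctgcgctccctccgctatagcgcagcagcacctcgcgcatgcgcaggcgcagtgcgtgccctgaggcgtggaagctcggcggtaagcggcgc
In *Sycp3* and *Hormad1* the E-box stands at 2 places before the start, and in *Stk31* at 1. *Nupr1*, shown further above, also holds it, and *Stk31* also holds TGATGNAA in 1 of its promoters.

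**Figure D3:**
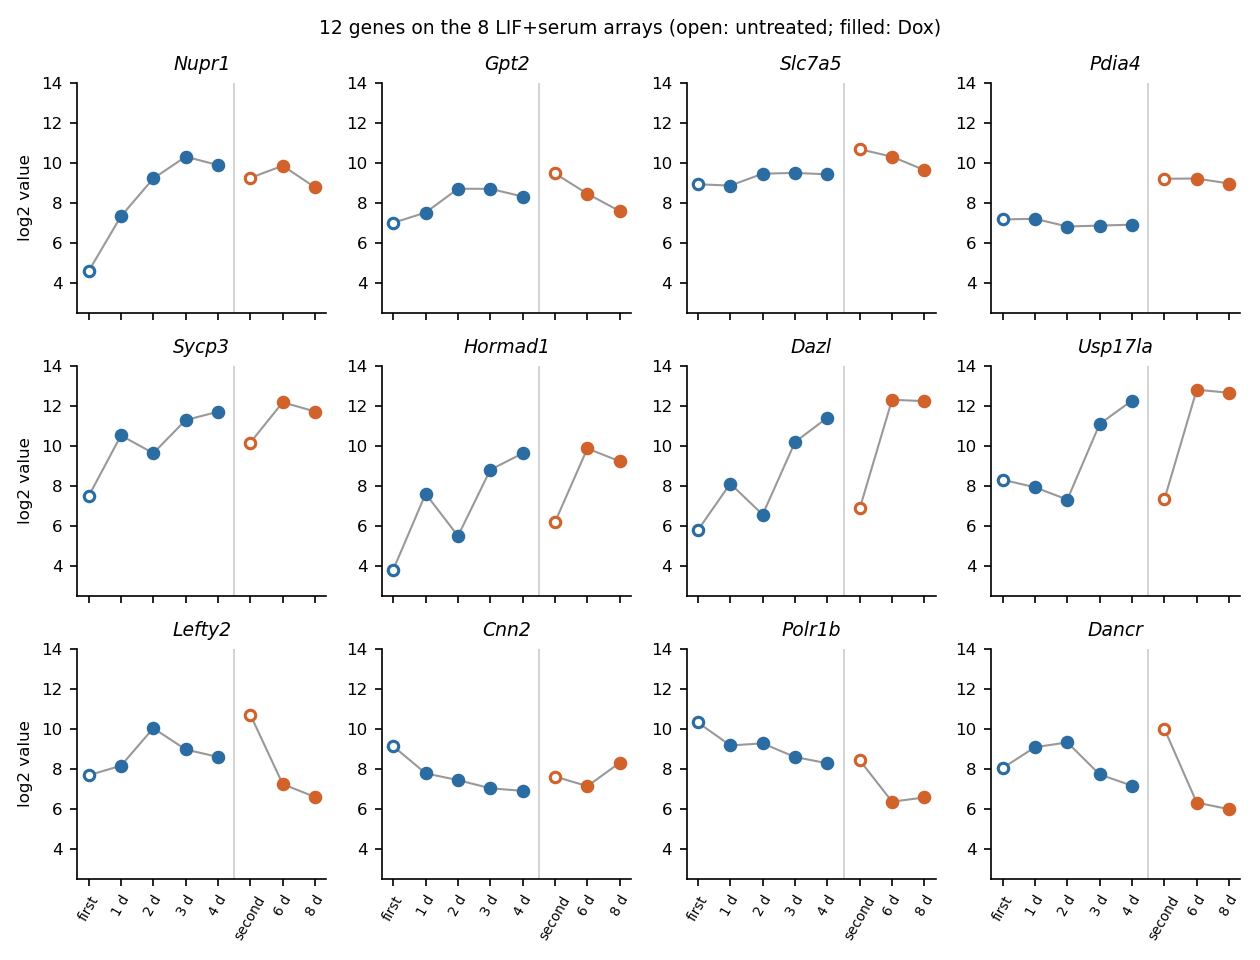
Levels of 12 genes on the 8 LIF+serum arrays. The y axis is the log2 value and the x axis the array, with open circles for the untreated arrays and filled ones for Dox days; blue is the first set and orange the second. *Nupr1* is low on the first untreated array only (4.59), *Pdia4* is high on all 3 arrays of the second set, and *Lefty2* and *Dancr* are highest on the second untreated array (10.69 and 9.99).

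Adhesion and cytoskeleton genes leaned the other way in their lower calls. Of 128 such genes 8 (6.25%) were higher and 10 (7.81%) lower, with a median of -0.15. Over all genes 6.43% were higher and 2.02% lower, with a median of -0.07. The share of higher adhesion genes was thus near that of all genes. Of 24 integrin and focal adhesion genes 3 were lower and 1 higher. *Cnn2*, an actin-binding calponin, read 9.12, 7.77, 7.43, 7.02 and 6.89 in the first set and 7.61, 7.13 and 8.30 in the second, so its highest value was the first untreated one. *Myl9*, the myosin light chain of contractile cells, differed by -1.76, the integrin genes *Itgb3* by -1.12 and *Itgav* by 1.19, and the actin cross-linker gene *Flna* by -0.93. Of 17 YAP and serum response genes 2 were lower, *Ccn1* (CYR61) by -1.39 and *Acta2*, smooth muscle actin, by -1.37, and 1 was higher, *Tead1* by 1.47. This list had the lowest median of all 55, -0.41. *Ccn1* was lower on all 4 of its probe sets, by -0.62 to -2.02.

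Of 18 keratin and epithelial genes 3 were lower, the calcium-binding protein gene *S100a6* by -1.59 and the annexin genes *Anxa2* and *Anxa3* by -1.09 and -1.04. *S100a6* read 9.58, 8.98, 7.13, 8.79 and 8.61 in the first set and 7.99, 7.86 and 9.61 in the second, so both its extremes lay outside the untreated pair. Of 18 cadherin and catenin genes 3 were higher, the desmosome gene *Dsp* by 1.24, *Epcam* by 1.06 and N-cadherin (*Cdh2*) by 1.03, and 1 was lower, *Pcdh8* by -1.12. Of 22 extracellular matrix genes 2 were higher, nidogen (*Nid1*) by 1.66 and fibronectin (*Fn1*) by 1.24. Of 15 regulators of the epithelial to mesenchymal transition *Zeb1* was higher by 1.03 and *Tgfb1* lower by -1.25, and of 14 tight junction genes 0 were called.

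In metabolism, 14 of 138 genes (10.1%) were higher and 1 (0.725%) lower, with a median of 0.09. The shares over all genes were 6.43% and 2.02%, with a median of -0.07. The amino acid carriers stood highest, with a median of 0.58 over 16 genes. *Slc7a5* read 8.94, 8.87, 9.47, 9.51 and 9.43 in the first set and 10.69, 10.32 and 9.64 in the second. *Slc1a4*, a carrier of neutral amino acids, differed by 1.57 and *Slc7a1*, a carrier of cationic ones, by 1.53. *Slc16a3*, a lactate exporter counted in the same list, was the one lower gene and read 8.42, 7.53, 6.73, 6.15 and 6.66 in the first set and 6.61, 4.61 and 4.76 in the second. *Slc7a5* also belongs to the integrated stress response list, as do *Mthfd2*, a mitochondrial folate enzyme (1.29), and *Phgdh*, which opens serine synthesis (1.02), so the lists are not separate evidence.

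*Psph*, the last enzyme of serine synthesis, differed by 1.21, and 3 of 19 serine, one-carbon and nucleotide genes were higher in all. Of 19 lipid genes 3 were higher, the desaturase gene *Scd1* by 1.5, the acyl-CoA ligase gene *Acsl4* by 1.27 and the elongase gene *Elovl6* by 1.02. *Aldh18a1*, which starts proline synthesis, differed by 1.72 and *Sat1*, a polyamine-degrading enzyme, by 1.01. Of 20 cholesterol genes 1 was higher (*Insig1* by 1.09), of 21 respiratory chain genes 1 (*Ndufa4* by 1.32), of 19 aminoacyl-tRNA synthetases 1 (*Eprs* by 1.40), and of 17 glycolysis genes 0 were called, with *Pfkl* at -0.97 and a median of -0.14.

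Genes of RNA metabolism held the list with the highest median, 1.35. Of 15 noncoding and snoRNA host genes 12 were higher and 0 lower. *Snhg1*, host of box C/D snoRNAs, read 8.67, 10.53, 11.09, 10.48 and 10.48 in the first set and 11.17, 10.41 and 10.18 in the second, and its 5 probe sets differed by 1.95 to 2.62. *Dancr* read 8.03, 9.08, 9.32, 7.71 and 7.15 in the first set and 9.99, 6.31 and 5.98 in the second. *Neat1*, the scaffold of paraspeckles, and *Snhg6* differed by 1.74 each, *Snhg5* by 1.64 and *Rian* of the imprinted *Dlk1*-*Dio3* region by 1.54. *Snhg3* differed by -0.70 and *Malat1* by 0.51.

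Of 21 splicing genes 5 were higher and 20 lay above 0, with a median of 0.59. *Luc7l3*, a factor of the U1 particle, differed by 1.83 and its other probe sets by 1.71 and 1.6. *Hnrnph1* differed by 1.43, *Rbm39* by 1.42, *Rbm25* by 1.41 and the splicing kinase gene *Clk1* by 1.09. *Srsf2*, which codes for a serine- and arginine-rich factor, differed by 0.06 and *Srrm1* by -0.02.

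Growth and cell cycle lists had medians near 0, from -0.26 to 0.11. Over all genes, 6.43% were higher and 2.02% lower. Of 22 nucleolar genes 2 were higher, *Dkc1* by 1.27 and *Nop58* by 1.17, both proteins of snoRNA particles, and 2 lower, *Polr1b* by -1.89 and *Rrp9* by -1.0. *Polr1b*, a gene known to be driven by MYC, read 10.31, 9.16, 9.27, 8.59 and 8.27 in the first set and 8.42, 6.35 and 6.57 in the second. Of 12 ribosomal protein genes 0 were called, with a median of -0.06. Of 20 replication genes *Pola1* was higher by 1.03 and the flap nuclease gene *Fen1* lower by -1.25. Of 20 mitosis genes *Cenpe*, *Cenpf* and *Nusap1* (15%) were higher by 1.22, 1.17 and 1.0, and *Aurka* lower by -1.14. In 6 of these 20 genes the first untreated array lay below all 7 others by at least 0.5, beside 4.45% of all probe sets. Of 17 genes of G1 the inhibitor gene *Cdkn1b* (p27) was higher by 1.29 and cyclin D2 (*Ccnd2*) lower by -1.35, and of 6 histone genes *H3c4* alone was lower.

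The core of pluripotency did not differ past 2-fold. Of 13 core genes 0 were called, with *Pou5f1* (OCT4) at -0.38, *Sox2* at 0.39 and *Nanog* at 0.54. Of 15 naive pluripotency genes 3 were higher and 13 lay above 0, with a median of 0.51. *Tbx3* read 8.06, 7.98, 8.85, 9.53 and 9.74 in the first set and 9.89, 11.02 and 11.10 in the second, and *Klf5* and *Tfcp2l1* differed by 1.28 and 1.11. Of 13 primed epiblast genes *Otx2* was higher by 1.88 and *Zic2* by 1.07, and *Pou3f1* (OCT6) lower by -1.01. *Otx2* read 8.07 on the second untreated array and 5.90 to 7.37 on the other 7, so this primed factor and the naive genes were both higher on the same array.

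Among signalling genes, 5 of 16 Nodal, BMP and Id genes were higher and 0 lower. Besides *Lefty2*, *Lefty1* read 9.89, 10.38, 11.65, 11.07 and 11.10 in the first set and 11.62, 9.44 and 8.11 in the second. *Inhbb*, an activin subunit, differed by 1.56, *Id4* by 1.34 and *Smad7*, an inhibitor of the pathway, by 1.28. Of 12 LIF and STAT3 genes *Socs2* was higher by 1.52 and *Lifr*, a subunit of the LIF receptor, by 1.30, and *Cish*, a feedback inhibitor, was lower by -1.31. The other probe sets of *Lifr* differed by -1.16 and -0.64, so its direction depends on the probe set. Of 12 WNT targets *Rspo3* was lower by -1.29 at a level below 6, and of 13 retinoic acid genes 0 were called.

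The MAX network and PRC1.6 differed in few members. *Mga* read 7.35 on the first untreated array, 9.03, 9.01, 9.46 and 9.50 at Dox 1, 2, 3 and 4 d, 9.44 on the second untreated array and 10.17 and 9.11 at 6 and 8 d, and 1 of 13 genes of the network was called. Its other probe sets differed by 1.46, 0.81, -0.20 and -0.22. *Max* itself differed by 0.16, at 5.57 and 5.74, and the sources used here do not say whether its probe set reads the disrupted gene or the cDNA. *Myc* and *Mycn* differed by 0.39 and -0.15. Of 19 genes of PRC1.6 and germ gene silencing *Uhrf1*, a partner of the maintenance DNA methyltransferase, was higher by 1.08 and *Dnmt3l* lower by -1.07, while *E2f6*, *Pcgf6* and *L3mbtl2*, which define the complex, differed by -0.06, -0.07 and -0.21.

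Markers of other cells were looked at beside these lists. All 10 pluripotency markers were well expressed on both untreated arrays and 0 were called. Of 12 fibroblast or feeder cell markers 3 reached 6, 1 was higher (*Pdgfrb*, 4.5 and 5.61) and 1 lower (*Acta2*), and their summed linear signal was 544 on the first and 459 on the second untreated array. The defining collagen genes *Col1a1*, *Col1a2* and *Col3a1* stood at 3.6 to 5.53 on the first and 2.84 to 5.19 on the second. Of 8 primitive endoderm, 7 trophectoderm and 5 mesoderm markers 0 were called. Of 6 neuroectoderm markers *Map2* was higher by 1.68 and *Neurod1* by 1.23, while *Sox1* and *Pax6* differed by -0.30 and -0.12. The male label could not be read from chromosome Y, since *Kdm5d*, *Uty* and *Eif2s3y* stood between 3.07 and 5.24 on all 8 arrays.

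The choice of untreated array set how many probe sets counted as changed at each Dox time. At Dox 1 d, 1387 probe sets (3.08%) were at least 2-fold higher and 197 (0.437%) lower over the first untreated array, which the labels pair with it, against 1070 (2.38%) and 1497 (3.32%) over the second. Over both arrays at once, 146 were higher and 48 lower. At Dox 2 d, 1903 (4.23%) and 467 (1.04%) passed over the first and 1015 (2.25%) and 1333 (2.96%) over the second, and at Dox 3 d 2437 (5.41%) and 1043 (2.32%), and 1418 (3.15%) and 1988 (4.41%). The calls of these early days were thus mostly higher ones over the first array and mostly lower ones over the second. At Dox 4 d, 3118 (6.92%) and 1423 (3.16%) passed over the first, 1806 (4.01%) and 2290 (5.08%) over the second, and 834 and 654 over both. At Dox 6 d, 2599 (5.77%) and 1925 (4.27%) passed over the second, its labelled reference, and 5908 (13.1%) and 3981 (8.84%) over the first. At Dox 8 d, 2472 (5.49%) and 2030 (4.51%) passed over the second, 5399 (12%) and 3380 (7.5%) over the first, and 1976 and 1146 over both. These counts share the Dox array and are given side by side only.

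The share of higher probe sets over the labelled reference that were also higher over the other one was 10.5% at 1 d, 8.46% at 2 d, 18% at 3 d and 26.7% at 4 d, and 84.2% at 6 d and 79.9% at 8 d. As a share of those over the other reference, the same probe sets made up 13.6%, 15.9%, 30.9% and 46.2% at 1 to 4 d, and 37.1% and 36.6% at 6 and 8 d. For the lower ones, the share of those over the labelled reference was 24.4%, 17.1%, 41.2% and 46.0% at 1 to 4 d and 65.6% and 56.5% at 6 and 8 d. Their share of those over the other reference was 3.21%, 6.00%, 21.6% and 28.6% at 1 to 4 d, and 31.7% and 33.9% at 6 and 8 d. At 8-fold the references differed less at 4 d, with 109 probe sets higher over the first, 103 over the second and 66 over both, and more at 6 d, with 446, 163 and 135. Most of the early calls thus held against 1 untreated array only, in the plot of counts by reference.

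**Figure D4:**
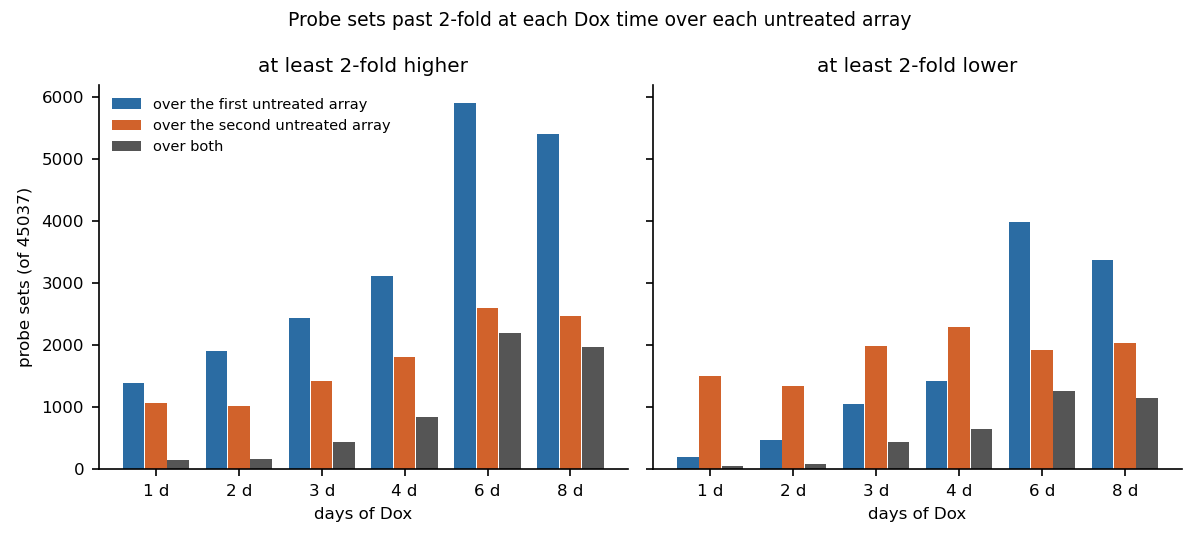
Probe sets at least 2-fold higher (left) or lower (right) at each Dox time. The y axis counts probe sets of 45037 and the x axis gives days of Dox; blue bars are over the first untreated array, orange over the second and grey over both. At 1 d 146 probe sets are higher over both, and at 6 d 2189.

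The Dox arrays could be placed along the gap between both untreated arrays. For the 3067 probe sets higher on the second, the median position at Dox 1 d was 50.4% of the way from the first to the second, at 2 d 63.1%, at 4 d 68.6%, at 6 d 121% and at 8 d 99.5%. For the 1283 lower ones it was 24.2% at 1 d, 33.2% at 4 d, 102% at 6 d and 94.5% at 8 d. These probe sets were chosen for a large gap between both untreated arrays, which draws any other array towards the middle of that gap, and no value for arrays without a change was at hand, so the positions are a description only.

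Some genes changed direction with the reference. At Dox 1 d, 27 genes were at least 2-fold higher over the first and at least 2-fold lower over the second untreated array, with 13 at 2 d, 18 at 3 d, 14 at 4 d and 7 each at 6 and 8 d. *Nupr1* at 1 d was 6.71-fold the first untreated value and 0.264-fold the second. *Lpar4* was 2.76-fold and 0.206-fold at 1 d, 3.37-fold and 0.251-fold at 3 d, and 2.48-fold and 0.185-fold at 6 d. *Lefty2* at 3 d was 2.44-fold and 0.301-fold. *Sp3*, a ubiquitous zinc finger factor, at 2 d was 2.70-fold and 0.407-fold, and its level ran from 5.93 to 7.38 in the first set and 8.66 to 9.10 in the second. *Smg1*, the kinase of nonsense-mediated decay, and *Ankrd49* had the same pattern, with 2.22-fold and 0.406-fold, and 2.32-fold and 0.379-fold, at 2 d. *Map1b*, a microtubule-binding protein gene, at 8 d was 2.29-fold and 0.385-fold. By construction, the Dox value of these genes lay between both untreated values.

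For the integrated stress response the counts differed between the references at each time looked at. Their difference follows by construction from the gap between both untreated values. At Dox 1 d, 2 of 27 genes were at least 2-fold higher over the first untreated array (3.01% of all genes) and 0 over the second (1.26%), where 8 were lower (3.09%). At 4 d, 13 were higher over the first (7.73%) and 4 over the second (3.28%). At 8 d, 7 were higher over the first (12.7%) and 1 over the second (6.35%), where 8 were lower (5.63%). The median fold of the list at 4 d was 1.95 over the first and 1.22 over the second, and at 8 d 1.46 and 0.718. *Chac1* at 4 d was 10-fold the first and 2.62-fold the second untreated value, and at 8 d 1.21-fold and 0.317-fold. *Atf4* at 8 d was 2.75-fold and 1.03-fold. At 2 d, 12 genes were higher over the first (4.27%) and 0 over the second (0.918%).

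Many germ cell genes passed over both untreated arrays at the later times. At Dox 4 d, 46 of 85 were at least 2-fold higher over the first (7.73% of all genes), 39 over the second (3.28%) and 37 over both (1.99%). At 8 d the counts were 48 (12.7% of all genes), 45 (6.35%) and 41 (5.14%). At 8-fold, 26 passed over the first (0.357% of all genes) and 24 over the second (0.242%) at 4 d, and all 24 passed over both (0.209%). *Sycp3* and *Meioc*, a meiosis factor, passed over the first only. *Sycp3* at 4 d was 18.7-fold the first and 2.91-fold the second untreated value. *Hormad1* was 56.2-fold and 10.8-fold, and *Dazl* 49.2-fold and 23.3-fold, where both were below 6 on the first untreated array (3.82 and 5.79), so that their folds over it are inexact and were not ranked. At 8 d *Stra8* was 121-fold and 45.4-fold, and *Usp17la* 20.4-fold and 40.3-fold. Folds are larger over whichever untreated array is lower, so those of *Usp17la* were larger over the second and those of the meiotic genes named here over the first.

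Fewer germ genes passed at the early times. At Dox 1 d, 15 of 85 were higher over the first (3.01% of all genes), 12 over the second (1.26%) and 10 over both (0.269%). At 2 d the counts were 6 (4.27% of all genes), 3 (0.918%) and 1 (0.11%). At 8-fold, *Hormad1*, *Stk31* and *Sycp3* passed at 1 d over the first (0.022% of all genes) and 0 over the second (0%). *Sycp3*, at 7.48 on the first untreated array, was 8.21-fold that value and 1.28-fold the second. *Hormad1* and *Stk31* stood at 3.82 and 3.84 on the first, near the background, so their passes over it rest on a level that is poorly measured, and on the second, at 6.20 and 5.78, they were 2.65-fold and 3.25-fold. At 2 d *Sycp3* was 4.44-fold the first and 0.692-fold the second untreated value. Of the 14 germ genes that were higher on the second untreated array, 13 had a higher value there than at Dox 2 d, *Tex11* being the other, and 7 a higher value than at Dox 1 d. These 14 genes were chosen for a high value on the second untreated array, which favours such an order, so both counts are a description only. The plot of folds over each untreated array shows these genes beside those of the stress response.

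**Figure D5:**
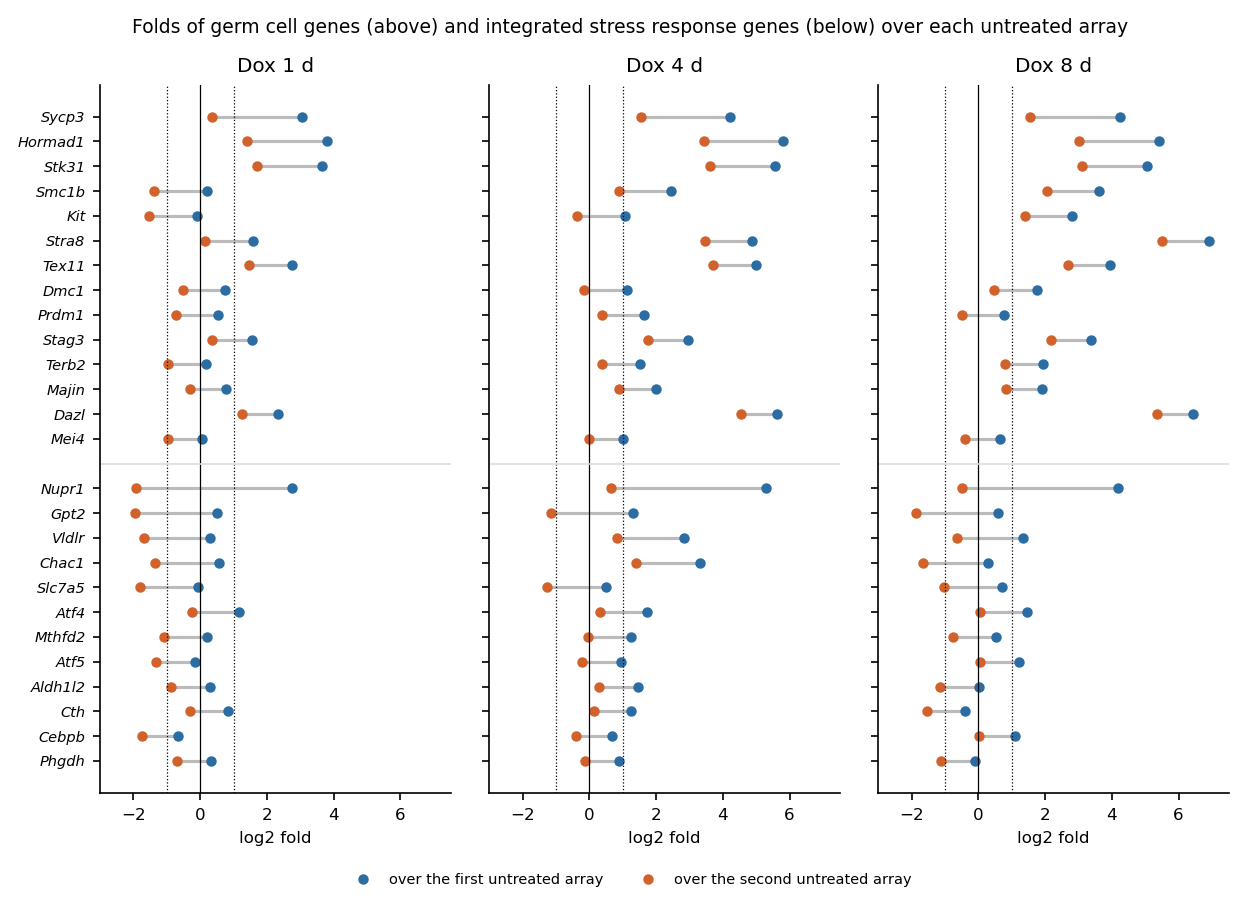
Log2 folds of 14 germ cell genes and 12 integrated stress response genes at Dox 1, 4 and 8 d. The x axis is the log2 fold, with blue points over the first and orange points over the second untreated array, and dotted lines mark 2-fold; the genes are those at least 2-fold higher on the second untreated array, so each blue point lies to the right of its orange one by construction. At 8 d the germ genes *Stra8* and *Dazl* stay far above 2-fold over both, while *Gpt2* and *Chac1* lie on opposite sides of 0.

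Other programmes also gave different counts and folds over each reference. For any gene, the fold over the first differs from that over the second by the gap between both untreated values, by construction. The values below restate that gap at each Dox time. Of the 15 noncoding and snoRNA host genes, 9 were higher at Dox 1 d over the first (3.01% of all genes) and 0 over the second (1.26%). At 8 d, 4 were higher (12.7% of all genes) and 5 lower (7.72%) over the first. Over the second, 0 were higher (6.35%) and 10 lower (5.63%) at 8 d. *Dancr* at 1 d was 2.06-fold and 0.530-fold, and at 8 d 0.240-fold and 0.0617-fold. *Lefty2* at 8 d was 0.470-fold the first and 0.0580-fold the second untreated value, and *Lefty1* 0.292-fold and 0.0877-fold. *Polr1b* at 4 d was 0.243-fold the first and 0.900-fold the second, and at 8 d 0.0745-fold and 0.276-fold. *Cnn2* at 4 d was 0.214-fold and 0.609-fold, and at 8 d 0.566-fold and 1.61-fold. *Tbx3* at 4 d was 3.20-fold and 0.904-fold, and at 8 d 8.20-fold and 2.32-fold. In *Dancr*, *Lefty1*, *Lefty2*, *Polr1b* and *Tbx3* the direction at 8 d was the same over both untreated arrays and the size was not.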

How the data were processed

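Labelled RNA of *Max*-null ESCs was hybridised to GeneChip arrays of the mouse genome (Mouse430_2), 1 array per condition. Before deposit, the authors corrected the background and ran robust multi-array analysis (RMA), and they deposited log2 values. RMA and affy are named in the processing notes of the submitters, without versions, and no source used here says which arrays were normalized together. RMA shrinks differences among weak signals, so folds near the background are likely understated.

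All 64 control probe sets among the 45101 were set apart. Of the other 45037, the platform's annotation gave 34945 with 1 symbol (18193 genes) and 932 with several, and did not list 9160, and no gene was named from several symbols. Samples were grouped by their labels. Differences and folds were taken between single log2 values and counted at 2-, 4- and 8-fold in Python 3.11.15 (matplotlib 3.10.9, numpy 2.4.6, pandas 2.3.3), and these steps were tested on simulated data. No test was made, since each side is 1 array.

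Of 944 entries in 55 gene lists, 859 were read. Both arrays were identified by their labels, but the choice to compare them, the gene lists and the naming rule were made with earlier results of these data known. The naming rule took the 12 genes with the largest difference each way that reached 6 (log2), up to 6 members of each list past 2-fold and up to 3 others, every germ cell gene and cell type marker, and the 5 genes per Dox time that turned most between references. *Six6os1*, *Mga* probe sets and further members of a family were looked up after the values were seen. Alternatives changed the level filter, the normalization, the centring, the fold, the probe set of a gene and the untreated reference. Promoters came from RefSeq (GRCm38.p6), and CACGTG, TGATGNAA and TCCCGC were searched on both strands. TCCCGC was in 32.9% of promoters and in 6 of the 11 of higher germ cell genes. It was also in 42.9% of the 937 promoters of all genes at least 2-fold higher on the second untreated array.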

Additional observations from a re-analysis of the deposited data

Results flagged for a closer look

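The 3 control probe sets for 18S ribosomal RNA, which enter no comparison above, read far higher on the second than on the first untreated array. The 3′ probe set stood at 12.66 against 8.25, the 5′ one at 13.35 against 8.37 and the middle one at 13.27 against 7.61. All 3 were also high at Dox 6 and 8 d (12.24 to 13.25) and low at Dox 1 to 4 d (7.23 to 8.17). Their part in the differences between the untreated arrays was not tested, and the array set they follow cannot be told apart from the Dox times it holds.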

How the results depend on the processing

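Keeping only probe sets that reached 6, the untreated arrays differed by 681 lower probe sets. At 4-fold the counts were 386 and 83, and with 1 probe set per gene 1169 and 367. Over the other untreated array the counts at Dox times were 1497 lower at 1 d, 1015 higher and 1333 lower at 2 d, 1418 and 1988 at 3 d, 1806 and 2290 at 4 d, 5908 and 3981 at 6 d, and 5399 and 3380 at 8 d. Over the mean of both, the higher ones were 461 at 1 d, 619 at 2 d, 1095 at 3 d, 1851 at 4 d and 4120 at 6 d. At 8-fold the counts higher and lower were 5 and 0 at 1 d, 5 and 0 at 2 d, 46 and 1 at 3 d, 109 and 1 at 4 d, 163 and 19 at 6 d, and 164 and 36 at 8 d. With only probe sets that reached 6 on an untreated array, 88 were lower at 1 d and 311 at 2 d, and 1075 and 1041 were higher at 6 and 8 d. With the mean of its probe sets, the difference of *Lifr* was -0.17 and that of *Trp53inp1* -0.0388, against 1.30 and 1.16. Of the 55 list medians 4 moved when only genes that reached 6 were kept, to 1.12 (synaptonemal complex, axis and cohesin), 0.55 (imprinted genes), 0.93 (primitive endoderm markers) and 0.56 (neuroectoderm markers). Only 1 of 8 primitive endoderm markers, *Col4a1*, reached 6, so 0.93 is the value of 1 gene, beside a median of -0.17 over the list. Of 6 neuroectoderm markers 4 reached 6. In 41 named genes of 139 besides *Lifr* and *Trp53inp1*, the mean of the probe sets moved the value without turning it. Centring or normalizing by quantiles again kept all 139. The cause of these changes was not tested.

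No paired analysis was possible because each condition has 1 array. With 1 array a side, the spread between cultures, the effect of the array set and that of the untreated state cannot be told apart, and signals below 6 are near the background, where RMA shrinks differences.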

Other observations

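Zinc finger genes with a Zfp symbol, looked at after the values were seen, held 68 genes of 336 (20.2%) that were at least 2-fold higher on the second untreated array and 4 lower, beside 6.43% and 2.02% of all genes, with a median of 0.22. Of 14 Snhg genes 8 were higher and 0 lower. Of 48 keratin genes 1 was higher and 1 lower, with a median of -0.32, and of 39 olfactory receptor genes 0 were higher and 2 lower, with a median of -0.43. Of 76 mitochondrial ribosomal protein genes 1 was higher and 0 lower, with a median of -0.13. The control probe sets of the transferrin receptor, the iron uptake receptor, differed by -1.30 to -1.62 between the untreated arrays and were low on the arrays of the second set.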
